A study of Mus musculus with 2 samples.

Results

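This section describes the homeobox and paired box genes outside the HOX clusters in MC3T3-E1, an osteoblastic cell line established from the skull vault of the mouse, with and without parathyroid hormone (PTH). The members were set by a rule on gene symbols, written with earlier results of these data known: the numbered genes of the Dlx, Msx, Irx, Pitx, Prrx, Alx, Meis, Pbx, Lhx and Pax families and the Six-family genes, with Hlx, Shox2, Barx1, Barx2 and Mkx. They were 58 of the 55487 rows of the deposited count table. The untreated library came from cells of the line with no PTH, and the PTH library from cells given 10 nM PTH, each labelled 1 h. Per the labels, the cultures shared medium with 10% fetal bovine serum, a plating density of 25000 cells per cm2 and the 12-well format, and PTH was added 24 h after plating. Each condition was represented by 1 library of this single line, so none of the differences could be checked against replicates and p-values are not given.

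Homeobox genes encode transcription factors that bind DNA through a homeodomain, and they set the position and identity of cells in the embryo. In the skeleton of the head, which carries little HOX expression, Dlx, Msx, Alx, Prrx and Six-family genes pattern the mesenchyme, much of it from the neural crest, that forms the calvaria and jaws. Pax genes encode a paired domain, and Pax1 and Pax9 have no homeodomain, so the set is called here homeobox and paired box genes. It also holds genes better known from nerve, eye, pituitary or pancreas, such as Lhx3, Pax6, Pitx3 and Pax4. PTH acts on osteoblasts through a receptor coupled to cyclic AMP, and many of its rapid target genes carry the cyclic AMP response element (CRE) TGACGTCA or its half-site TGACG.

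Promoter letters of some of these genes are shown first, because the CRE is the usual way of describing a cyclic AMP target. RefSeq promoter windows (GRCm38.p6), 250 bases before to 50 bases after a start site, were available for 38 of the 58 members, 25 of them with enough counts to compare. Among the 6 members that passed the rule of size described below, Hlx, Irx3 and Msx2 had a window. On either strand, TGACGTCA stood in 1.79% of all 32851 windows and in that of 1 of the 25 compared members, Pax6. The half-site TGACG, which every full CRE also contains, stood in 20.8% of all windows and in those of 7 of the 25 members, Dlx2, Irx2, Lhx1, Lhx4, Msx2, Pax6 and Pax9. The AP-1 motif TGANTCA stood in 7.81% of all windows and in those of Lhx4, Lhx6 and Six5. The homeodomain core TAATTA stood in 5.29% of all windows and in those of Msx2 and Prrx1, and the CCAAT box in 37.4% and in those of 14 of the 25. The percentages are shares of windows, whereas a member was counted when any of its windows held the motif. The 38 members had 46 windows, so the units differ. The last 2 motifs were added after the sequences had been seen.

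The Hlx stretch ends just before the first base of the annotated gene, and capitals mark its 3 CCAAT boxes on either strand. The Msx2 and Pax6 stretches are 30 bases around 1 match each, in capitals, and all are written 5′ to 3′ on the strand of the gene. The Msx2 pieces show a CRE half-site, read on the other strand, and a TAATTA core in the window of a gene with fewer reads after PTH. Both lie before the start site of that RefSeq window but inside the gene as GENCODE annotates it. The Pax6 piece shows the full CRE of a gene whose interval included 1. No TGACGTCA, TGACG or TGANTCA stood in the windows of Hlx and Irx3, which says only that these letters are not in those 300 bases.
Hlx, chr1:184732620-184732743, minus strand: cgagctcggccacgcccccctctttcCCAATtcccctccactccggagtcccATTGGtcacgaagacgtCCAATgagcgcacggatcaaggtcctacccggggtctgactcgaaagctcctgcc
Msx2, chr13:53472950-53472979, minus strand: tgactgctcctgTAATTAactcctaattta
Msx2, chr13:53472863-53472892, minus strand: gagcgtccgtggCGTCAggagcagggccgt
Pax6, chr2:105668809-105668838, plus strand: tctggccgccgTGACGTCAtccgcgcccgg

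The libraries held 66302211 (untreated) and 70036872 (PTH) counts over genes, and the cell type label was checked against markers. The osteoblast genes Col1a1, Runx2, Alpl, Sp7, Ibsp and Bglap were all counted, Bglap at 57 and 87 counts. The defining markers Myod1 and Myf5 of muscle, Sox2 of neural progenitors, Epcam of epithelium, Cdh5 of endothelium and Ptprc of blood cells were at 0 in both libraries. Other markers on these lists were counted. In muscle, Acta1 was at 124 and 28 counts and Des at 62 and 33, and the 5 muscle markers summed to 2.77 CPM (counts scaled by the effective library size) untreated and 0.94 after PTH. Krt14 was at 160 and 247 counts and Cdh1 at 42 and 14, and the 4 epithelial markers summed to 3.01 and 3.77. Csf1r was at 122 and 155 counts and Cd68 at 67 and 57, and the 5 blood and macrophage markers summed to 2.81 and 3.07. Pecam1 of endothelium was at 9 and 9 counts. Of the adipocyte markers, Fabp4 was at 34 and 45 counts and Pparg at 12 and 10, and Adipoq, Lpl and Plin1 were at 0. Markers at higher counts were Col2a1 of cartilage at 27597 and 38400 counts, Map2 of nerve at 1847 and 2113 and Scx of tendon at 1278 and 1145. On the same lists Acan, Tnmd, Thbs4, Elavl4 and Gfap were at 0 in both libraries and Col9a1 at 4 and 0 counts. Matn3 was at 470 and 447, Comp at 152 and 124 and Tubb3 at 523 and 836. Whether other cell types had a part in the results below was not tested. As a check of the treatment, the cyclic AMP target Rgs2 went from 123 to 6334 counts.

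Of the 58 members, 39 had a total of 20 or more counts and were compared, 3 had fewer, and 16 were at 0 in both libraries. Among the 16 were Barx1, Barx2, Irx4, Lhx3, Lhx5, Msx3, Pax1, Pax2, Pax4, Pax5, Pax7, Pax8, Pitx1, Pitx3 and Six6. If sampling were the sole source of zeros, each 0 would be compatible with as many as 3 counts, equal to 0.0447 (untreated) and 0.0434 (PTH) CPM. The 3 with fewer counts were Irx6 with 5 untreated and 2 after PTH, Pbx4 with 5 and 0, and Lhx2 with 4 and 0, and no fold is given for them. The deposited file has an excess of zeros: 598 of its rows had 10 to 29 counts in one library against 0 in the other, and 0 of these were members. No compared member shared 20% or more of its exonic length with another annotated gene. The largest overlap was that of Meis1, with 9.77% on its own strand and 8.51% on the opposite one.

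Counts were scaled between the libraries by trimmed mean of M-values (TMM) library sizes. The rule of size was met when the 95% exact interval of a gene's ratio, PTH over untreated, lay beyond 1.5-fold in its whole length. These intervals, in brackets below, reflect the sampling of independent reads and nothing else. By this rule Hlx, Irx3, Irx5 and Pax3 had more reads after PTH and Msx2 and Dlx3 fewer, while 33 of the 39 compared members were neither. The 4 members with more reads were 10.3% of those compared, against 5.39% of all 16408 compared rows and 4.49% of protein-coding rows. The 2 with fewer were 5.13%, against 3.54% of all rows and 3.06% of protein-coding rows. At the shares of all rows, 2.1 members with more reads and 1.38 with fewer would stand in a set of this size. The median log2 ratio was 0.06 for the members, with quartiles of -0.19 and 0.47, and 0.00 for all rows, with quartiles of -0.20 and 0.20.

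How much cultures vary cannot be known from these libraries. When each interval was widened for an assumed coefficient of variation of 0.2 per library, Hlx, Irx3, Irx5 and Pax3 were still past the rule, against 2.89% of all rows with more reads. Msx2 and Dlx3 were not, so 0 members had fewer reads by that rule, against 1.63% of all rows.

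**Figure D1:**
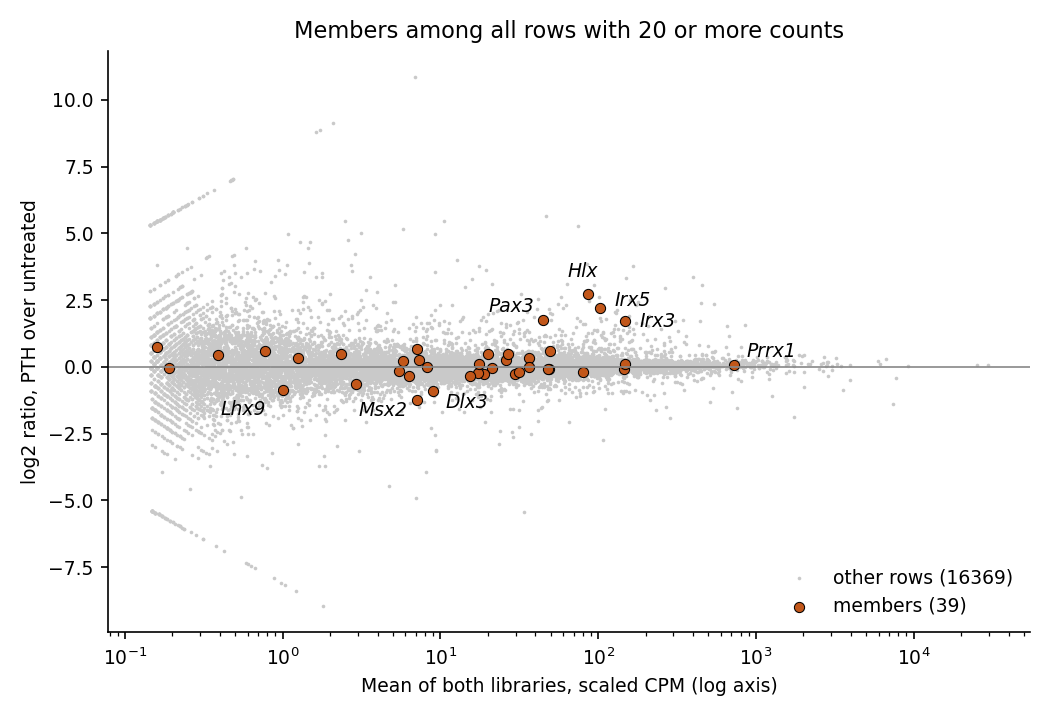
Mean of both libraries in scaled CPM (x axis, log scale) against the log2 ratio of PTH over untreated (y axis) for 39 members (orange) and the 16369 other compared rows (grey), 1 library per condition. Hlx, Irx5, Irx3 and Pax3 stand above the band of members around 0, and Msx2, Dlx3 and Lhx9 below it. Lhx9, close to Dlx3 in ratio but with fewer counts, did not pass the rule of size. The diagonal lines of grey points at the left are rows at 0 or a few counts in 1 library.

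Hlx, a homeobox gene best known from the mesenchyme of gut and liver and from blood cells, had the highest ratio of the compared members. It had 1508 counts untreated and 10369 after PTH, a ratio of 6.68 (6.33 to 7.05). The gene lies on chromosome 1 at 184727140 to 184732619 (GRCm38, minus strand), and none of its exons overlaps another annotated gene. Ranked by the lower bound of the interval, Hlx stood at 64 of the 12771 compared protein-coding rows. Its level, in scaled CPM per kilobase of annotated exon, went from 9.86 to 65.8, which moved it from rank 10 to rank 5 among the 58 members.

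The Iroquois genes encode homeodomain proteins of the TALE class and pattern heart, nerve and limb. They lie in 2 clusters, Irx3, Irx5 and Irx6 on chromosome 8 and Irx1, Irx2 and Irx4 on chromosome 13. Only genes of the chromosome 8 cluster passed the rule of size. Irx3 had 4620 counts untreated and 15617 after PTH, a ratio of 3.28 (3.18 to 3.39). Irx5, the paralogue 556 kb from it, had 2483 and 11731 counts, a ratio of 4.59 (4.39 to 4.79). The third gene of this cluster, Irx6, was nearly uncounted, as given above. Neither gene of chromosome 13 with enough counts passed the rule of size, though the interval of Irx2 lay above 1 and reached past 1.5. Irx1 had 2258 and 2037 counts, a ratio of 0.876 (0.825 to 0.931), and Irx2 1128 and 1620, a ratio of 1.39 (1.29 to 1.51). Irx3 thereby had the highest level per length of all members after PTH, 81.8 against 24.9 untreated, and Irx5 went from 11.8 to 54.3.

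Pax3, a paired box and homeobox gene of the neural crest and of muscle precursors, had 1377 counts untreated and 4745 after PTH, a ratio of 3.35 (3.15 to 3.56). It spans chromosome 1 from 78101267 to 78197134. Its level per length went from 3.31 to 11.1, from rank 23 to rank 11. Pax9, a paired box gene of the jaw and tooth mesenchyme, was at 449 and 547 counts with a ratio of 1.18 (1.04 to 1.34). Pax6, the eye and forebrain gene that carries the full CRE shown above, was at 388 and 354 counts with a ratio of 0.886 (0.765 to 1.03). The other 6 Pax genes were at 0, among them Pax7, the close relative of Pax3. The muscle genes that Pax3 is known to act upstream of, Myod1 and Myf5, were at 0 in both libraries, and Myog at 0 and 4 counts.

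**Figure D2:**
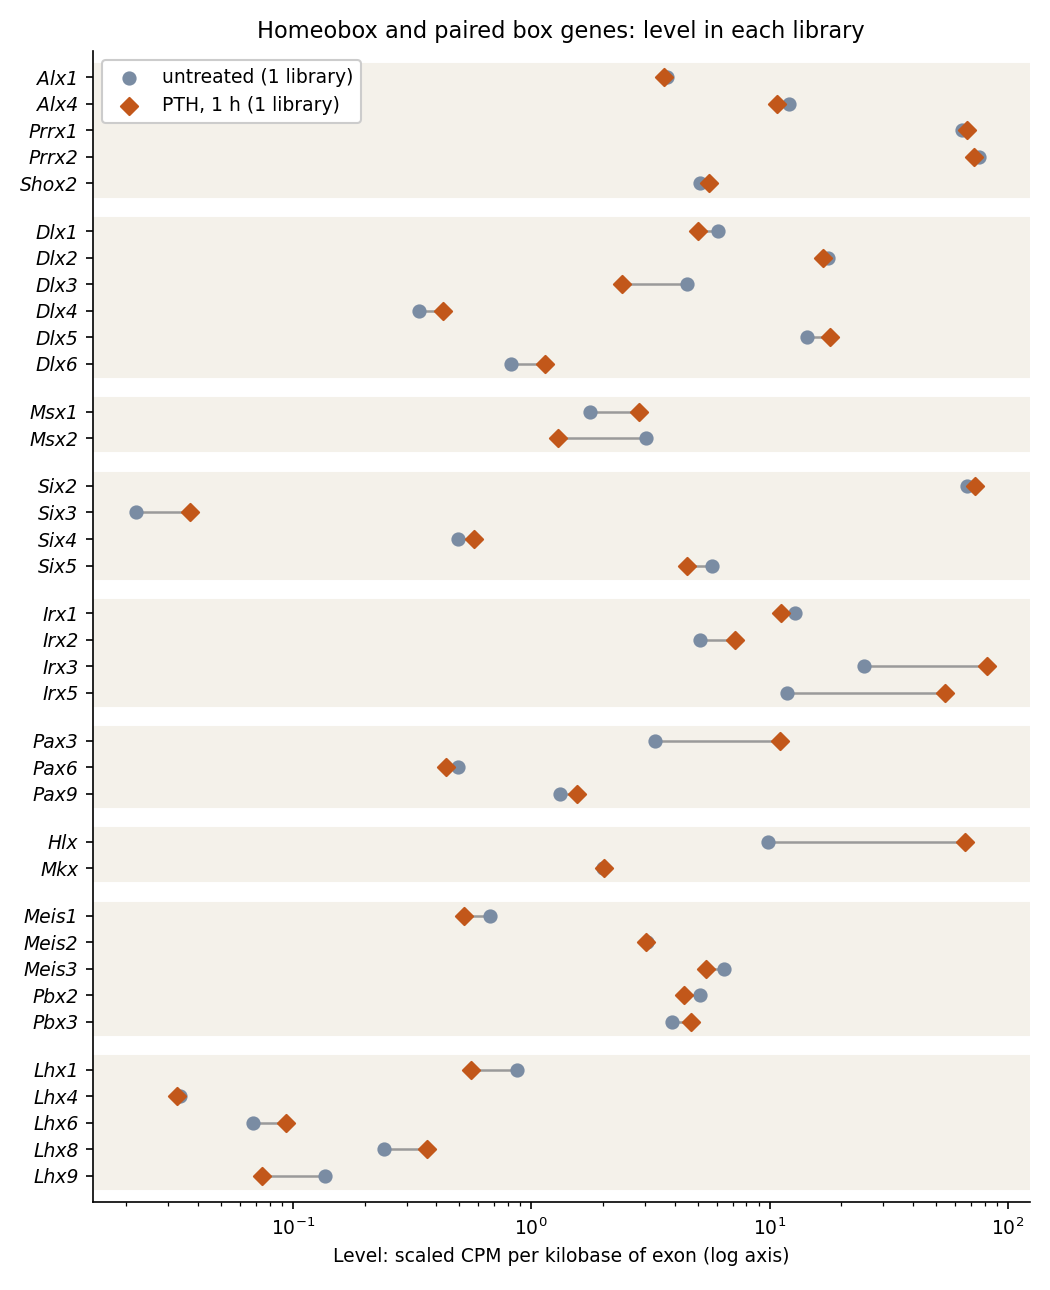
Level of the compared members that are described in the text, in scaled CPM per kilobase of exon (x axis, log scale), by family (shaded blocks), in the untreated library (grey circle) and the PTH library (orange diamond). The long lines of Irx3, Irx5, Pax3 and Hlx run to the right and those of Dlx3, Msx2 and Lhx9 to the left. The circles and diamonds of Prrx1, Prrx2 and Six2 nearly coincide at high levels.

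Msx1 and Msx2, homeobox genes induced by bone morphogenetic proteins (BMP) and needed for the skull and teeth, went in opposite directions. Msx2, which acts in growth of the calvarial bones, had 664 counts untreated and 292 after PTH, and was 2.34-fold lower (2.04 to 2.70). Msx1 had 366 and 605 counts, a ratio of 1.61 (1.41 to 1.83), whose lower bound missed the rule. The level per length of Msx2 was above that of Msx1 in the untreated library (3.02 against 1.76) and below it in the PTH library (1.29 against 2.82).

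The Dlx genes, relatives of Drosophila Distal-less, sit as convergent pairs in the genome, and all 6 were counted. Dlx3, which acts in tooth, hair and bone, had 792 counts untreated and 434 after PTH, and was 1.88-fold lower (1.67 to 2.12). Its pair partner Dlx4, 15.2 kb away on chromosome 11, had 74 and 96 counts and a ratio of 1.26 (0.921 to 1.73). Dlx5, an activator of osteoblast genes, had 2171 and 2816 counts and a ratio of 1.26 (1.19 to 1.33), and its partner Dlx6, 9.24 kb away, 131 and 187 counts and a ratio of 1.39 (1.10 to 1.75). The third pair, Dlx1 and Dlx2, was at ratios of 0.823 (0.774 to 0.876) and 0.955 (0.91 to 1.00). Their counts went from 2197 and 3370 untreated to 1863 and 3315. Both ratios lay on one side of 1 within each of the last 2 pairs, but not within that of Dlx3 and Dlx4. The intervals of Dlx2 and Dlx4 included 1, so the side of 1 is not placed for these genes. The summed level of the 6 genes was 43.6 untreated and 43.7 after PTH.

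Of the Six-family genes, relatives of Drosophila sine oculis, Six2 had the highest level. Six2, which keeps cells of the kidney and skull base in a progenitor state, was at 9542 and 10617 counts with a ratio of 1.08 (1.05 to 1.11). Six4 was at 360 and 430 counts with a ratio of 1.16 (1.01 to 1.34), and Six6 was at 0. Six5 was at 1156 and 938 counts with a ratio of 0.788 (0.722 to 0.860). Six3, a forebrain gene beside Six2, had 8 and 14 counts, too few to place its ratio (0.665 to 4.68).

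The paired-related genes that mark skeletal mesenchyme had, as a group, the most reads of the set, mostly those of Prrx1. Their ratios stayed within a narrow range. Prrx1, a marker of limb and craniofacial mesenchyme, had 47661 counts untreated and 51282 after PTH, a ratio of 1.04 (1.03 to 1.06). Prrx2 was at 9981 and 9811 counts (ratio 0.955), Alx4, a gene of the parietal bones, at 5741 and 5207 (0.881), Alx1 at 1442 in both libraries (0.971) and Shox2 at 1140 and 1271 (1.08). Prrx2, Six2 and Prrx1 had the highest levels per length untreated, 75.8, 67.1 and 64.1, and the next gene, Irx3, was at 24.9. Mkx, a tendon factor, was at 552 and 573 counts, a ratio of 1.01 (0.895 to 1.14), which is below 1 with total-count scaling.

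**Figure D3:**
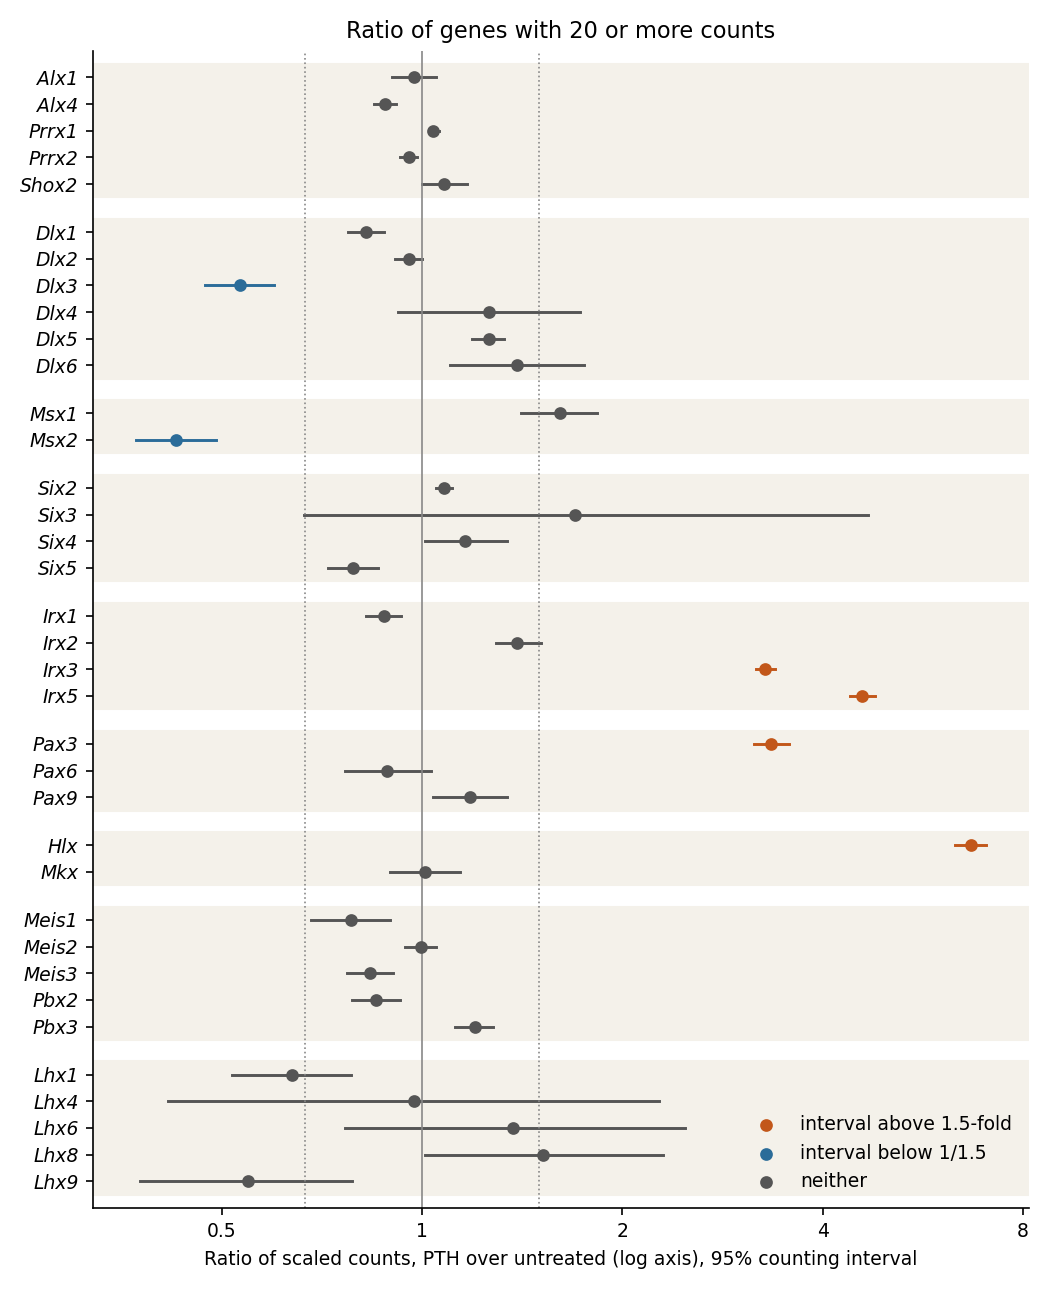
Ratio of scaled counts, PTH over untreated, of the compared members described in the text (x axis, log scale) with its 95% counting interval as a line, by family, 1 library per condition. Dotted lines mark the 1.5-fold limit in each direction. The intervals of Hlx, Irx3, Irx5 and Pax3 lie wholly to the right of it (orange), those of Msx2 and Dlx3 to the left (blue), and the widest are those of Six3, Lhx4, Lhx6, Lhx8 and Lhx9.

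Meis and Pbx genes encode TALE homeodomain proteins that serve as DNA-binding partners of HOX and other homeodomain factors. None of the 6 compared ones passed the rule, and their ratios ran from 0.781 for Meis1 to 1.2 for Pbx3. Meis1 was at 475 and 382 counts, Meis2 at 2463 and 2528, Meis3 at 1374 and 1182, Pbx2 at 1253 and 1100, and Pbx3 at 1603 and 1976. The related TALE genes Pknox1, Pknox2, Tgif1 and Tgif2 were also within it, with ratios from 0.790 for Pknox1 to 1.33 for Tgif1. Of the exonic length of Tgif2, 61.6% is overlapped on the opposite strand, so its assignment is uncertain.

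The Lhx genes, which encode LIM homeodomain factors known mainly from nerve, had few reads. Lhx1 had 239 counts untreated and 157 after PTH, a ratio of 0.638 (0.518 to 0.783), and Lhx9 87 and 49, a ratio of 0.547 (0.377 to 0.785). Lhx8, which also acts in tooth and palate mesenchyme, had 41 and 64 counts and a ratio of 1.52 (1.01 to 2.30). Lhx6 had 22 and 31 counts and Lhx4 13 and 13. None of the 5 passed the rule. Of the 9 LIM cofactor genes listed, 5 could be compared and none passed it, including Ldb1, the partner of LIM homeodomain proteins, at a ratio of 1.08 (1.04 to 1.12).

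Most of the difference in the summed reads of the set lay in the 4 members with more reads. Their scaled CPM summed to 149 untreated and 614 after PTH, and those of the other 54 members were 1587.8 and 1629.9. Prrx1 alone held 710 and 742. This sum over the 4 is a description, since they were picked for their ratios.

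Rows beside the 6 members past the rule were then read, within 100 kb of each gene body, a window chosen after the members' values had been seen. Mtarc1, a molybdenum enzyme gene 54.1 kb from Hlx, had 49 counts untreated and 224 after PTH, a ratio of 4.44 (3.25 to 6.18). The next gene, Mtarc2, was at a ratio of 1.27. The noncoding row Gm34342, 4.36 kb from Hlx, was at 23 and 55 counts with a ratio of 2.32 (1.4 to 3.96). Another, Gm37800 at 97.7 kb, was at 211 and 356 counts with a ratio of 1.64 (1.38 to 1.95). Mtarc2, Gm34342 and Gm37800 did not pass the rule. Beside Irx5, the noncoding Crnde, which starts 1.5 kb away on the opposite strand, had 596 counts untreated and 1135 after PTH, a ratio of 1.85 (1.67 to 2.05). Another noncoding row there, Gm21817, had 121 and 506 counts with a ratio of 4.06 (3.32 to 4.99), and Gm45336 had 26 and 23. Irx3os, which overlaps Irx3 on the opposite strand, was at 363 and 454 counts with a ratio of 1.21 (1.06 to 1.4), while Irx3 itself was at 3.28. The exons of Irx3 share 4.49% of their length with the opposite strand, and no source used here says whether reads were counted by strand. Another noncoding row near Irx3, Gm36380, was listed at 0 and 24 counts.

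Near the members with fewer reads the ratios were mixed too, as they were beside those with more reads. Over all compared rows, 5.39% had more reads and 3.54% fewer. Around Dlx3, the antisense row Dlx4os had 36 counts untreated and 12 after PTH, a ratio of 0.324 (0.153 to 0.637), and the noncoding Gm11515 had 34 and 6, a ratio of 0.171 (0.0588 to 0.413). The protein-coding genes there, Itga3, Pdk2 and Samd14, were at ratios of 0.986, 1.14 and 0.874. Near Msx2, the only other row with enough counts was Sptlc1, at a ratio of 0.890 (0.837 to 0.946). No other row lay within 100 kb of Pax3.

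**Figure D4:**
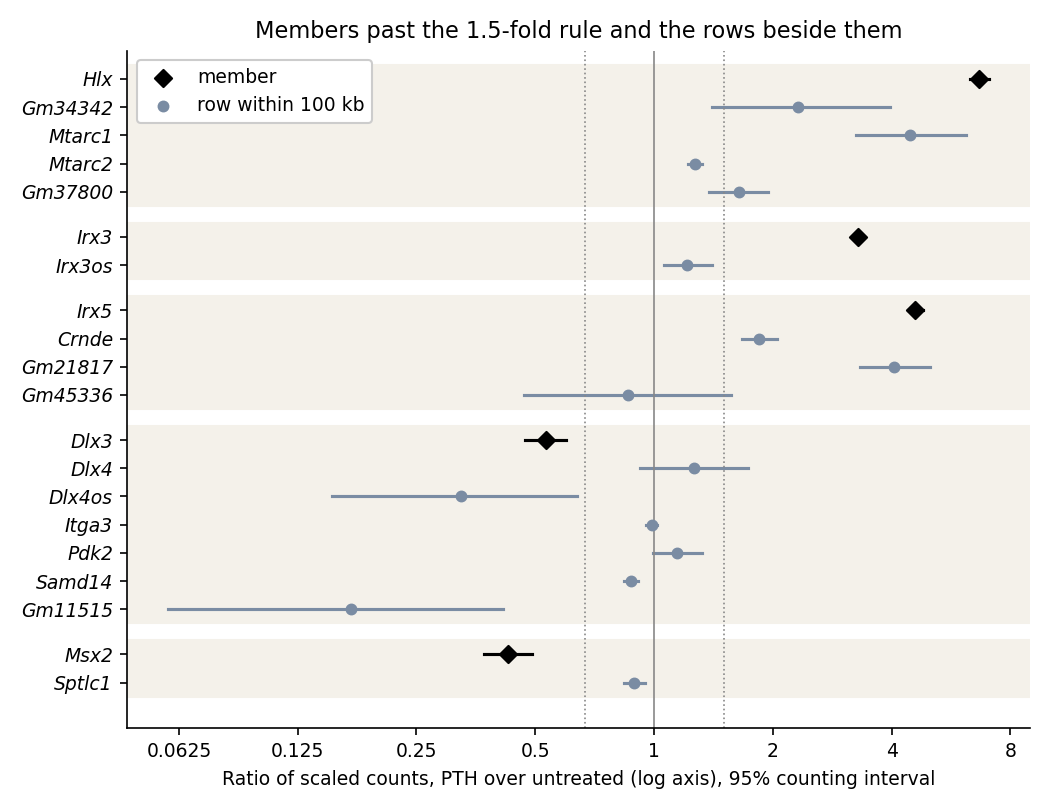
Ratios of PTH to untreated scaled counts with 95% counting intervals (x axis, log scale) for 5 members past the rule (black diamonds) and the rows within 100 kb that had counts in both libraries and a total of 20 or more (grey circles), by locus. The whole intervals of Mtarc1 beside Hlx and of Gm21817 and Crnde beside Irx5 lie to the right of the dotted 1.5-fold line, as for Hlx and Irx5. Those of Dlx4os and Gm11515 lie to the left with that of Dlx3. The points of Gm34342 and Gm37800 beside Hlx are also to the right, but their intervals cross the line. Pax3, with no such row, and Gm36380, listed at 0 untreated, are not drawn.

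Genes that work with the members were read from lists. Of the 4 compared EYA genes, which coactivate Six-family proteins, Eya1 had more reads, with 6052 and 11173 counts and a ratio of 1.79 (1.74 to 1.85), and the other 3 were neither. The share of all rows with more reads was 5.39%, and with fewer 3.54%, which these short lists are read against. Eya4 was at 12845 and 14322 counts (ratio 1.08), Eya2 at 107 and 168 (1.52, 1.19 to 1.96), and both Dach genes were at 0. Msx, Pax and Six-family proteins recruit corepressors of the Groucho family. Of the 6 listed genes of that family, Tle4 had fewer reads, with 681 and 398 counts and a ratio of 0.568 (0.5 to 0.643). The other 5 were neither, including Tle3 at 1.4.

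Of 17 compared genes of the BMP pathway, which acts upstream of Msx and Dlx genes, Smad6 had more reads, at a ratio of 1.81 (1.73 to 1.89), none had fewer and 16 were neither, close to the 5.39% and 3.54% of all rows. The BMP targets Id1, Id2 and Id3 were at 1.45, 1.47 and 1.02, the ligand gene Bmp4 at 1.09 (1.06 to 1.11), and Bmp2, Bmp5, Bmp6 and Bmp7 were at 0. Among 9 compared osteoblast genes known to respond to DLX, MSX or RUNX factors, Sp7, which encodes osterix, had fewer reads, with 4583 and 1974 counts and a ratio of 0.418 (0.397 to 0.441). The other 8 were neither, and 3.54% of all rows had fewer reads. In this list Runx2 was at a ratio of 1.03, Alpl at 1.02, Ibsp at 0.774 and Spp1 at 0.952.

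A chosen list of homeobox genes outside both the set and the HOX clusters was also read. Among the 27 compared, 1 had more reads, 2 had fewer and 24 were neither, beside 5.39% and 3.54% of all rows. Homez had 156 counts untreated and 422 after PTH, a ratio of 2.63 (2.18 to 3.18), Hhex had 166 and 63, a ratio of 0.369 (0.271 to 0.495), and Hmx2 had 64 and 24, a ratio of 0.364 (0.218 to 0.590). The genes of this list with most counts, Zfhx3, Adnp and Cux1, were at 1.19, 1.11 and 1.06, and Adnp shares 82.1% of its exonic length with another gene on its strand, so its reads are uncertain. Over the 27 genes the median log2 ratio was -0.05, against 0.06 for the members and 0.00 for all rows.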

How the data were processed

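The authors deposited whole-number read counts per gene, not normalised, with 1 column per library. HISAT2 was the aligner and mm10 the genome build, per the submitters' processing notes. The aligner's version, the counting tool and the use of strand were not given in the sources used here. Library sizes came from edgeR 4.0.16 (TMM, R 4.3.3) over the 16408 rows that reached 20 counts in total. With 1 library per group no residual degrees of freedom remain, so a quasi-likelihood fit was not possible. The ratio of scaled counts has a 95% exact (Clopper-Pearson) interval (scipy 1.17.1), and log2 ratios have 0.5 count added to each library. Intervals and floors cover counting error only, since PCR copies are not independent molecules. Positions, exonic lengths and overlaps came from GENCODE M21 (GRCm38, the assembly also called mm10), where all 58 members have an entry, with bedtools 2.31.1. Lengths join all annotated exons, so genes with long rare exons appear lower per length. The rule named every member with 20 or more counts in total. A few genes are not reported here or labelled in the plots, though the counts of genes include them. Other lists give the genes past the rule and some of the rest, which are not always those with most counts. The members and lists were chosen with earlier results of these data known. Plots were drawn with matplotlib 3.10.9.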

Additional observations from a re-analysis of the deposited data

How the results depend on the processing

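No paired analysis was possible because each group has 1 library. Hlx, Irx3, Irx5 and Pax3 were past the rule under all 10 alternatives run: 3 other scalings (total counts, DESeq2 1.42.0 size factors, upper-quartile factors), no count filter or one of 100, a lower fold limit and one of 2, intervals widened by a coefficient of variation of 0.1 or 0.2, and leaving out rows that share 20% or more of their exonic length. Several of these alternatives could not have changed the calls of Hlx, Irx3, Irx5 and Pax3. A lower limit keeps any interval beyond 1.5-fold, and no compared member shared 20% or more of its exonic length. The count filters reached these genes only through the scaling. With the lower fold limit, 8 of the 39 compared members had more reads (Irx2 and Msx1 among those added). Members with fewer reads then numbered 4 (Lhx1 and Lhx9 in addition). Of all rows, 9.11% (1495) had more reads and 7.39% (1213) fewer at that limit. Members with fewer reads numbered 1 (Msx2) with a fold limit of 2 and with the variation of 0.1, and 0 with 0.2. Of all rows, 1.6%, 2.46% and 1.63% had fewer reads under these settings, in that order. Over all rows, more and fewer reads numbered 1386 and 983 with no filter, 543 and 307 with a filter of 100, 517 and 262 with a fold limit of 2, and 474 and 267 with the variation of 0.2. The members' median log2 ratio was 0.03 with total counts and 0.00 with no filter, so its sign carries no weight. With total-count and upper-quartile scaling 20 of 39 members had a log2 ratio above 0, against 21 with TMM. The depth limits the Lhx genes, Six3, Dlx4 and Dlx6, whose intervals span more than 1.5-fold.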

Other observations

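Transcription factors of the craniofacial mesenchyme that have no homeobox were read from a list, as a setting for the genes above. Of 19 compared, 7 had more reads by the rule of size, none had fewer and 12 were neither, against 5.39% and 3.54% of all rows. Foxc2, a forkhead factor of mesenchyme and vessels, had 569 counts untreated and 3917 after PTH, a ratio of 6.68 (6.12 to 7.31). Sox9, the cartilage factor, was at 3264 and 10982 counts with a ratio of 3.27 (3.14 to 3.40). Tfap2a, a neural crest factor, was at 602 and 1492 counts with a ratio of 2.41 (2.19 to 2.65), and 14.6% of its exonic length overlaps the opposite strand. Foxf1, Foxc1 and Foxf2 were at 1.89, 1.83 and 1.61. Twist2 was at 71 and 193 counts, with 46.5% of its length overlapped on the opposite strand, so its assignment is uncertain. Among the 12 that were neither, Tfap2b, Gli3, Tbx18 and Tcf12 were at 1.04, 1.02, 0.998 and 0.999, and others were further from 1. Of the length of Tbx18, 20.6% is overlapped on the opposite strand. The list's median log2 ratio was 0.18, against 0.06 for the homeobox and paired box genes. The list was written with earlier results of these data known, which already showed the value of Sox9.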
